A study of Mus musculus with 14 samples.

Results

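The 10 genes described here encode the transcription factors and regulators of the integrated stress response: Atf4, Atf5, Ddit3, Cebpb and Cebpg, which encode basic leucine zipper (bZIP) transcription factors, Trib3 and Nupr1, which encode cofactors, Sesn2 and Ddit4, which encode inhibitors of the growth kinase complex mTORC1, and Ppp1r15a, a phosphatase subunit. They were taken by name from a list, as 10 of the 53735 gene symbols in each count table, and all 10 were tested at both time points. RNA was sequenced from 14 hearts of male C57BL/6 mice. All animals carried 1 copy of the tamoxifen-inducible Cre transgene, written alphaMHCMCM/+, in which the Myh6 promoter drives Cre in cardiomyocytes, and all received tamoxifen. Knockout animals (cKO, Fam210afl/fl, alphaMHCMCM/+) also carried floxed alleles of Fam210a, a gene for a mitochondrial protein, and control animals (alphaMHCMCM/+) are given without floxed alleles. Late hearts, 3 cKO and 3 control, were taken about 10 weeks after tamoxifen, when the submitters describe cardiac function as strongly impaired; early hearts, 4 cKO and 4 control, were taken at about 5 weeks, with function described as normal. Ages of the animals were not given. RNA came from heart tissue that also held non-cardiomyocytes, which keep Fam210a, so fewer cells of a type and less RNA per cell cannot be told apart. Early cKO replicate 4 carries knockout labels in title and description while the genotype listed for it is the control one; it is counted as a cKO heart here, and results that turn on it are given with and without it.

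In the integrated stress response, kinases that sense stress phosphorylate the translation factor eIF2α, which lowers most protein synthesis but favours translation of a few mRNAs with upstream open reading frames, among them those of ATF4, ATF5, CHOP and GADD34. ATF4 pairs with C/EBP-family proteins and activates genes for amino acid synthesis, amino acid transport and tRNA charging, together with several of the genes listed above, including Ddit3, Trib3 and Sesn2. In heart and skeletal muscle the response is known for its activation when mitochondrial function fails. Since ATF4 is controlled largely at translation, its RNA level is one of several steps at which it is regulated, and protein was not analysed here.

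Because several of the genes are known to be controlled through ATF4 and C/EBP sites, the 250 bases before each RefSeq gene start (GRCm38.p6) were searched on both strands for the C/EBP-ATF response element (TGATGNAA), the cAMP response element (TGACGTCA) and the ER stress response element (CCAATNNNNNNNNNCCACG). Of the 10 genes, 1 held the first motif, 1 the second and none the third, while 3.45%, 1.55% and 0.113% of 32851 mouse promoters held them. The first match was in Nupr1, on the reverse strand, 110 to 103 bases before the start, and the second in Ppp1r15a, 12 to 5 bases before the start; in GENCODE M21 the Nupr1 stretch also lies inside an exon of other Nupr1 transcripts. Trib3, which had the largest late change of the 10, held no match to the searched letters in this window. The matched stretches and the Trib3 window are printed 5′ to 3′ on the strand of the gene, with matches in capitals.
Nupr1, chr7:126625563-126625590, minus strand: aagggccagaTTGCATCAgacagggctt
Ppp1r15a, chr7:45526269-45526310, minus strand: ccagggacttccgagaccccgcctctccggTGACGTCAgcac
Trib3, chr2:152344061-152344310, minus strand: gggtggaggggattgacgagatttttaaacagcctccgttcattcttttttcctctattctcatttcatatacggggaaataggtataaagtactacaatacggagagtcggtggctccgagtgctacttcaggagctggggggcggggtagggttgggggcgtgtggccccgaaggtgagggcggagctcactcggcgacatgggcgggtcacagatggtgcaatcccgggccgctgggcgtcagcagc

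Late, 8 of the 10 genes rose in cKO hearts (Trib3, Sesn2, Atf5, Ppp1r15a, Atf4, Nupr1, Ddit3 and Ddit4), with folds from 3.63 to 38.3, and none fell. Early, 4 rose, Trib3 and Atf5 by 3.57-fold and 3.52-fold, Sesn2 by 1.92-fold and Atf4 by 1.56-fold, and none fell. The change was larger late than early for all 8 genes that rose late, and for Cebpg it ran lower late than early. Calls are edgeR quasi-likelihood F tests at an adjusted p under 0.05 over all tested genes. Late, 65% of 14942 tested genes were called. As shares of all tested genes, 31.8% were called higher and 33.2% lower in cKO hearts. Early, 0.613% of 13529 genes were called, 0.517% higher and 0.0961% lower. For the difference between times, 61.2% of 14555 genes were called, 29.8% with a higher and 31.3% with a lower late change; 8 of the 10 genes were in the first class and 1, Cebpg, in the second. The median log2 fold change of the 10 genes was 2.87 late and 0.35 early, against -0.02 and 0.00033 over all tested genes. The cKO and control hearts did not overlap, with cKO higher, for the same 8 genes late (34% of all tested genes) and for 5 genes early (2.98% of all tested genes), the 4 called ones and Cebpg; none of the 10 was without overlap and lower in cKO hearts (35.9% of all tested genes late, 2.68% early).

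**Figure D1:**
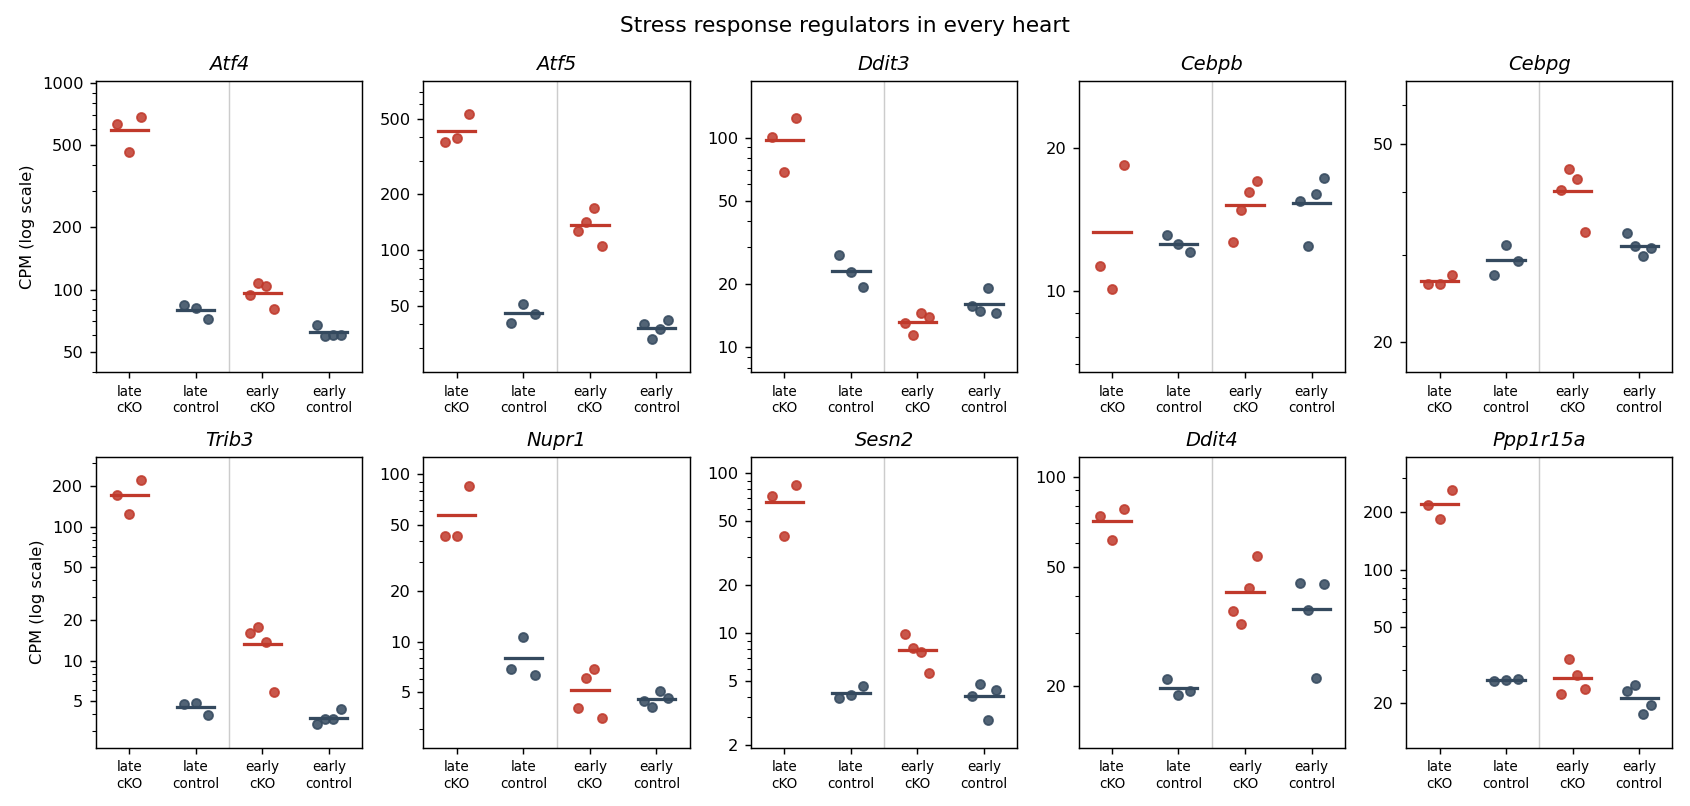
CPM (read counts scaled to library size, log axis) of the 10 genes in every heart, late groups left of early groups and cKO (red) left of control (blue); points are hearts and bars are group means. Late, the cKO points of 8 genes lie above all controls, with Trib3 at 124 to 221 CPM in cKO hearts against 3.93 to 4.81 CPM in controls, while those of Cebpb spread from below to above the controls and 2 of 3 of those of Cebpg lie below them; early, the cKO points of Atf4, Atf5, Trib3, Sesn2 and Cebpg lie above all controls.

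Fam210a was examined first as the check of the labels. It averaged 66.8 ± 3.41 CPM in late cKO hearts and 128 ± 7.27 CPM in late controls (n = 3 each, SD), with a log2 fold change -0.94, SE 0.11, edgeR adjusted p = 6.5e-05. Early, it averaged 146 ± 10.2 CPM in the cKO group and 170.4 ± 6.04 CPM in the control group (n = 4 each, SD), with a log2 fold change -0.22, SE 0.06, edgeR adjusted p = 0.17 and every cKO heart, replicate 4 included, below every control. Which exons the deletion removes is not stated in the labels, and these counts cover the whole gene. Libraries held 29989076 to 35750964 counts late and 15657298 to 19466469 early. Values below are CPM, counts divided by TMM-scaled library sizes, given in the order of replicate number; each time point is a separate table, so levels are not compared between times. Whether every library stands for its own animal is not stated in the labels, so p-values may measure a spread that is partly technical. The cardiomyocyte markers of the tissue were 10 genes, among them Myh6, Tnnt2 and Ttn. Late, they summed to 65713 to 76707 CPM in cKO hearts and 74989 to 84677 CPM in controls, with 1 gene higher and 4 lower. The 4 that fell were Myl3 (log2 fold change -2.55), Pln (-1.76), Tnni3 (-1.22) and Myl2 (-1.004). Mybpc3 (0.35) rose, while Myh6, Tnnt2 and Ttn were not called late. Early, the 10 markers summed to 65976 to 70879 CPM in cKO hearts and 73390 to 80442 CPM in controls, with none called.

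Atf4 (GRCm38 chr15:80255184-80257541, plus strand) encodes the central factor of the response, and its RNA rose at both times. Late, Atf4 had 636, 465 and 682 CPM in cKO hearts, against 84.1, 81.6 and 72.0 CPM in controls. Early, it had 94.6, 108, 104 and 80.2 CPM in cKO hearts, against 67.2, 59.7, 60.4 and 60.4 CPM in controls. At both times every cKO heart lay above every control; early, replicate 4 was the lowest of the cKO hearts. The rise was 7.5-fold late (log2 fold change 2.91, SE 0.17, edgeR adjusted p = 1.59e-06) and 1.56-fold early (log2 fold change 0.64, SE 0.08, edgeR adjusted p = 0.00495), and the late change exceeded the early one by 2.29 on the log2 scale (SE 0.18, edgeR adjusted p = 3.72e-08). The late spread was wider in cKO hearts, with an SD of 0.30 on the log2 scale, than in controls, with 0.12.

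Atf5 (chr7:44812256-44816658, minus strand), which encodes a bZIP factor under the same kind of translational control and linked in mammalian cells to the mitochondrial unfolded protein response, was the gene with the smallest p among the 10 early. Late, Atf5 had 376, 394 and 533 CPM in cKO hearts, against 40.8, 51.6 and 45.5 CPM in controls. Early, it had 127, 142, 167 and 105 CPM in cKO hearts, against 40.1, 33.4, 37.8 and 42.5 CPM in controls. The groups did not overlap at either time, and the lowest early cKO heart, replicate 4, was far above the highest control. Atf5 rose 9.45-fold late (log2 fold change 3.24, SE 0.17, edgeR adjusted p = 1.06e-06) and 3.52-fold early (log2 fold change 1.82, SE 0.12, edgeR adjusted p = 2.08e-05), and the late change exceeded the early one by 1.44 on the log2 scale (SE 0.21, edgeR adjusted p = 2.88e-05), the smallest excess of the 8. Its early log2 change was 56.1% of its late one, the largest share among the same 8 genes. Its exons share 82 bases (4.11%) with those of Nup62 and Il4i1 on the other strand, and reads there cannot be assigned, since the library kit does not mark strand; Nup62 rose late (log2 fold change 1.22, edgeR adjusted p = 2.33e-05) and stood at 19.6 CPM in both early groups.

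Ddit3 (chr10:127290774-127296288, plus strand) encodes CHOP, a C/EBP-family factor that promotes cell death under prolonged stress, and it rose late without passing the test early. Late, Ddit3 had 101, 68.9 and 124 CPM in cKO hearts, against 27.6, 22.8 and 19.4 CPM in controls. Early, it had 13.1, 11.5, 14.6 and 14 CPM in cKO hearts, against 15.7, 14.9, 19.2 and 14.5 CPM in controls. Late, all cKO hearts were above all controls, whereas early 3 of 4 cKO hearts were below all controls and the remaining one lay within their range. Ddit3 rose 4.22-fold late (log2 fold change 2.08, SE 0.22, edgeR adjusted p = 4.73e-05); early, the log2 fold change was -0.27 (SE 0.11, edgeR adjusted p = 0.4). Between times, the late change exceeded the early one by 2.37 on the log2 scale (SE 0.25, edgeR adjusted p = 9.96e-07). Ddit3 shares 68 exonic bases (3.97%) with Mars, a tRNA synthetase gene on the other strand, which rose by 1.61 late (edgeR adjusted p = 6.24e-06) and by 0.73 early (edgeR adjusted p = 0.00106) on the log2 scale, and the annotation gives its symbol to 2 gene IDs.

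Cebpb (chr2:167688915-167690418, plus strand) and Cebpg (chr7:35046422-35056573, minus strand) encode C/EBPβ and C/EBPγ, bZIP partners of ATF4; neither passed the test at either time. Late, Cebpb had 11.3, 10.1 and 18.5 CPM in cKO hearts, against 13.1, 12.6 and 12.1 CPM in controls. Early, it had 12.7, 14.8, 16.2 and 17.1 CPM in cKO hearts, against 15.5, 12.4, 16.0 and 17.3 CPM in controls. Late, 1 cKO heart, replicate 3, lay above and the other 2 below all controls, and early the groups overlapped. The log2 fold change of Cebpb was 0.08 late (SE 0.21, edgeR adjusted p = 0.772) and -0.01 early (SE 0.11, edgeR adjusted p = 0.984); without late cKO replicate 3 the late value was -0.22. Cebpb shares 312 exonic bases (20.7%) with Tmem189 on the other strand, which rose late (log2 fold change 1.11, edgeR adjusted p = 0.0001), so its late level is uncertain. Late, Cebpg had 26.1, 26.2 and 27.4 CPM in cKO hearts, against 27.3, 31.3 and 29.2 CPM in controls. Early, it had 40.4, 44.7, 42.5 and 33.4 CPM in cKO hearts, against 33.2, 31.2, 29.7 and 30.9 CPM in controls. Late, 2 of 3 cKO hearts were below all controls; early, all 4 cKO hearts were above all controls, replicate 4 by a small margin. The log2 fold change of Cebpg was -0.14 late (SE 0.11, edgeR adjusted p = 0.286) and 0.36 early (SE 0.09, edgeR adjusted p = 0.114). The early change passed without early cKO replicate 4 (adjusted p = 0.00728), with DESeq2 (0.022), with no filter on low counts (0.00595) and with replicate 4 counted as a control (0.00845), and the adjusted p ranged from 0.00595 to 0.329 over all alternatives. The late change was lower than the early one by a log2 difference of -0.49 (SE 0.13, edgeR adjusted p = 0.00465).

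Trib3 (chr2:152337422-152344032, minus strand), which encodes a pseudokinase that ATF4 induces and that restrains ATF4 in turn, had the largest change late and, with Atf5, one of the 2 largest early. Late, Trib3 had 171, 124 and 221 CPM in cKO hearts, against 4.72, 4.81 and 3.93 CPM in controls. Early, it had 16.1, 17.9, 13.8 and 5.85 CPM in cKO hearts, against 3.35, 3.63, 3.65 and 4.33 CPM in controls. Both groups were separate at both times, but early cKO replicate 4 was close to the controls while the other 3 cKO hearts were at least 13.8 CPM. Trib3 rose 38.3-fold late (log2 fold change 5.26, SE 0.24, edgeR adjusted p = 5.17e-07) and 3.57-fold early (log2 fold change 1.84, SE 0.28, edgeR adjusted p = 0.0106), and the late change exceeded the early one by 3.44 on the log2 scale (SE 0.41, edgeR adjusted p = 3.36e-06), the largest excess of the 10. The early call was lost without control replicate 3 (edgeR adjusted p = 0.0527), with a log2 fold change of 1.83, and held under every other alternative, with an adjusted p from 7.97e-13 to 0.0478. The early spread between cKO hearts, an SD of 0.73 on the log2 scale, was the widest of the 10 genes in any group.

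Nupr1 (chr7:126623249-126630861, minus strand) encodes a small stress-induced chromatin cofactor, and it rose late. Late, Nupr1 had 42.7, 42.7 and 85 CPM in cKO hearts, against 6.90, 10.6 and 6.33 CPM in controls. Early, it had 3.99, 6.08, 6.88 and 3.49 CPM in cKO hearts, against 4.43, 4.08, 5.06 and 4.62 CPM in controls. Late, cKO replicate 3 had 1.99 times the level of the other 2 cKO hearts; early, 2 cKO hearts were above and 2 below all controls. Nupr1 rose 7.15-fold late (log2 fold change 2.84, SE 0.31, edgeR adjusted p = 5.65e-05), and its early log2 fold change was 0.18 (SE 0.20, edgeR adjusted p = 0.821). Between times, the late change exceeded the early one by 2.68 on the log2 scale (SE 0.40, edgeR adjusted p = 3e-05).

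Sesn2 (chr4:132492032-132510501, minus strand) and Ddit4 (chr10:59949669-59951834, minus strand) encode Sestrin2, a leucine sensor, and REDD1, an activator of the TSC complex, both of which restrain mTORC1; both rose late, and Sesn2 also early. Late, Sesn2 had 72.6, 40.3 and 84.6 CPM in cKO hearts, against 3.94, 4.09 and 4.68 CPM in controls. Early, it had 9.89, 8.10, 7.58 and 5.67 CPM in cKO hearts, against 4.07, 4.85, 2.88 and 4.39 CPM in controls. No cKO heart of either time overlapped a control, and the early margin between the lowest cKO heart and the highest control was small. Sesn2 rose 15.5-fold late (log2 fold change 3.96, SE 0.27, edgeR adjusted p = 4.25e-06) and 1.92-fold early (log2 fold change 0.94, SE 0.18, edgeR adjusted p = 0.0406), and the late change exceeded the early one by 3.03 on the log2 scale (SE 0.35, edgeR adjusted p = 2.03e-06). The early call rests on all 8 hearts: leaving out any heart other than cKO replicate 4 ended it, with edgeR adjusted p from 0.0596 to 0.123, while without that heart the adjusted p was 0.00676; over all alternatives it ranged from 1.26e-05 to 0.187. Late, Ddit4 had 74.1, 61.6 and 77.7 CPM in cKO hearts, against 21.1, 18.6 and 19.2 CPM in controls. Early, it had 35.6, 32.1, 42.6 and 54.3 CPM in cKO hearts, against 44.1, 36.0, 21.2 and 43.6 CPM in controls. Late, Ddit4 was higher in every cKO heart than in every control; early, 1 cKO heart, replicate 4, was above all controls, the other cKO hearts lay within their range, and control replicate 3 was the lowest heart. Ddit4 rose 3.63-fold late (log2 fold change 1.86, SE 0.13, edgeR adjusted p = 4.49e-06), and its early log2 fold change was 0.18 (SE 0.21, edgeR adjusted p = 0.826). Between times, the late change exceeded the early one by 1.69 on the log2 scale (SE 0.30, edgeR adjusted p = 0.000152). Its early control hearts spread over 2.09-fold, the widest of the 10 genes among early controls, which limits the size of an early change that could be detected.

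Ppp1r15a (chr7:45522916-45526268, minus strand) encodes GADD34, which brings protein phosphatase 1 to eIF2α and so reverses the signal, and it rose late. Late, Ppp1r15a had 218, 183 and 259 CPM in cKO hearts, against 26.1, 26.5 and 26.9 CPM in controls. Early, it had 22.4, 34.0, 28 and 23.8 CPM in cKO hearts, against 23.2, 25.1, 17.6 and 19.7 CPM in controls. Late, the controls lay within 1.03-fold of each other and far below the cKO hearts; early, 2 of 4 cKO hearts were above all controls and the other 2 within their range. Ppp1r15a rose 8.30-fold late (log2 fold change 3.05, SE 0.15, edgeR adjusted p = 6.97e-07), and its early log2 fold change was 0.34 (SE 0.14, edgeR adjusted p = 0.418). Between times, the late change exceeded the early one by 2.73 on the log2 scale (SE 0.21, edgeR adjusted p = 3.6e-08). The exact two-sided permutation test of single genes can go no lower than 0.1 with 3 against 3 hearts and 0.0286 with 4 against 4, and the genes without overlap reached these values.

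**Figure D2:**
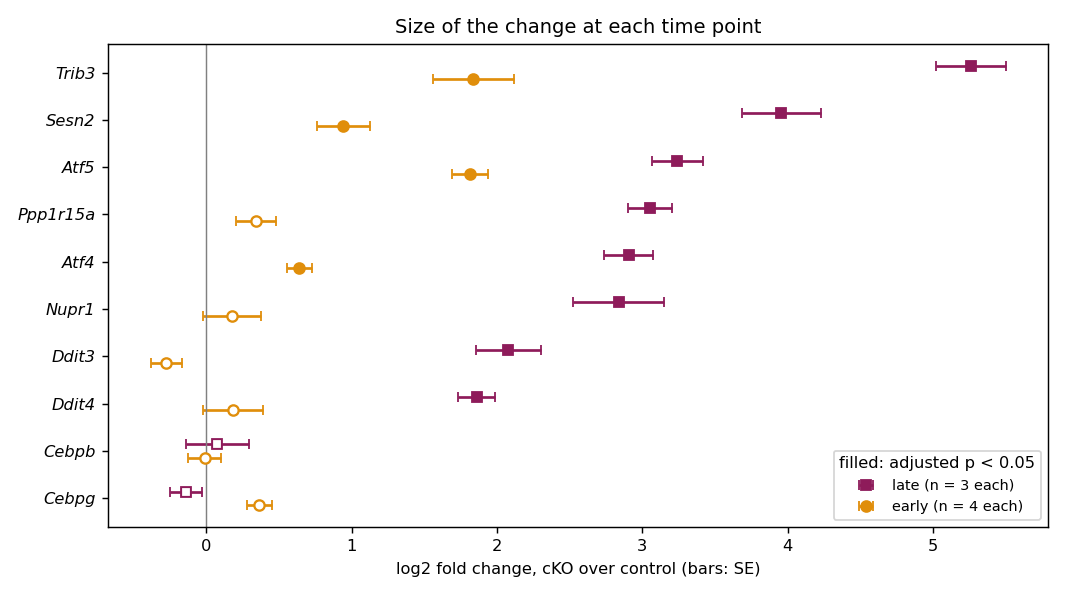
Log2 fold change of cKO over control for each of the 10 genes, late (squares, n = 3 each) above early (circles, n = 4 each), with bars for the SE; filled symbols passed edgeR at an adjusted p under 0.05. Trib3 lies farthest right late (5.26), Atf5 has the smallest gap between times among the 8 late risers (1.44), and Cebpb and Cebpg lie near 0 late.

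The order of the changes differed between times for most of the genes below Trib3. By log2 fold change the late order was Trib3, Sesn2, Atf5, Ppp1r15a, Atf4, Nupr1, Ddit3, Ddit4, Cebpb and Cebpg, and the early order was Trib3, Atf5, Sesn2, Atf4, Cebpg, Ppp1r15a, Ddit4, Nupr1, Cebpb and Ddit3. The ranges of most neighbours in these orders overlapped, although the order within single hearts was often kept. Taking the change in each cKO heart against the mean of its controls, the ranges of neighbours were apart late between Trib3 and Sesn2 (mean difference 1.33 on the log2 scale), between Nupr1 and Ddit3 (0.74) and between Ddit4 and Cebpb (1.82), and early between Atf5 and Sesn2 (0.87) alone. Early, Trib3 led Atf5 in 2 of 4 hearts, so the first place early was not settled. Sesn2 was above Atf4 in 4 of 4 early hearts, by 0.13 to 0.68, although the ranges of the pair overlapped. Atf4 over Cebpg and Cebpb over Ddit3 also held in 4 of 4, and the remaining early pairs in 2 or 3 of 4. Late, Sesn2 led Atf5, Atf5 led Ppp1r15a and Ppp1r15a led Atf4 in 3 of 3 hearts, with overlapping ranges. Atf4 led Nupr1, Ddit3 led Ddit4 and Cebpb led Cebpg in 2 of 3. The early log2 change as a share of the late one was 56.1% for Atf5, 34.9% for Trib3, 23.8% for Sesn2, 22.0% for Atf4, 11.2% for Ppp1r15a, 9.79% for Ddit4 and 6.30% for Nupr1, while Ddit3 was below 0 early; for Ppp1r15a, Ddit4 and Nupr1 the early value did not pass the test.

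The cKO hearts of a time point differed from each other along most of the genes. Late, cKO replicate 3 was the highest of the 3 cKO hearts for all 10 genes, while 41.6% of all tested genes were highest there, and cKO replicate 2 was the lowest for 8, with 26.0% of all tested genes lowest there. The total of the 10 genes was 2113 CPM in late cKO replicate 3, 1728 CPM in replicate 1 and 1416 CPM in replicate 2, against 239 to 265 CPM in late controls. Replicate 3 also stood apart over all genes, where chi-square values per gene were 107 and 101 for its pairs with the other 2 cKO hearts and 21.5 for that remaining pair; the part of this in the gene levels was not tested. Without it the 8 late calls held, with log2 fold changes from 1.8 for Ddit4 to 5.05 for Trib3. Early, cKO replicate 4 was the lowest cKO heart for 6 of the 10 genes (Atf4, Atf5, Cebpg, Trib3, Nupr1 and Sesn2) and the highest for Cebpb and Ddit4, while 28.4% of all tested genes were lowest there and 27.9% highest. Without replicate 4, 5 genes were called early, Trib3 (log2 fold change 2.08), Atf5 (1.92), Sesn2 (1.07), Atf4 (0.72) and Cebpg (0.44), against 4 with it. That heart was still above all controls for Atf4, Atf5, Trib3, Sesn2 and Cebpg, although the genotype listed for it is the control one. The total of the 10 genes was 343 to 443 CPM in early cKO hearts, lowest in replicate 4, against 214 to 251 CPM in early controls. Early, the log2 changes of Atf4 and Cebpg ran side by side: their difference was 0.24 to 0.30 in the 4 cKO hearts, with an SD of 0.02, the smallest spread of any neighbouring pair. In the late hearts Atf4 changed by 2.55 to 3.11 and Cebpg by -0.16 to -0.09.

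**Figure D3:**
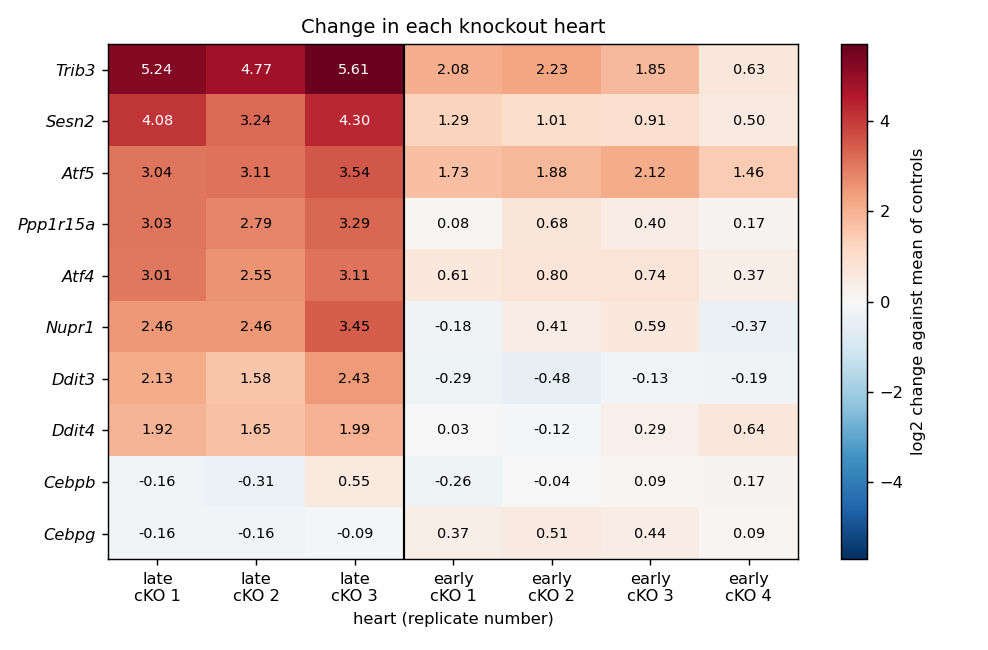
Log2 change of each gene (rows, ordered by the late fold change) in each of the 7 cKO hearts (columns, late left of early), against the mean log2 CPM of the controls of the same time point; red is higher and blue lower than controls. Late cKO replicate 3 holds the highest value of every row among late hearts (Trib3 5.61), and early cKO replicate 4 holds the lowest early Trib3 value (0.63).

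Per kilobase of exon, Atf4 RNA was the most abundant of the 10 in late cKO hearts, late controls and early controls, and Atf5 RNA in early cKO hearts. Late, cKO hearts had 252 ± 48.7 CPM per kb of Atf4 and 218 ± 43.0 of Atf5, which overlapped each other, against 33.6 ± 2.71 and 23.1 ± 2.71 in controls, which did not overlap (SD, n = 3 each). Early, cKO hearts had 67.9 ± 13.1 CPM per kb of Atf5 and 40.9 ± 5.16 of Atf4, without overlap between the genes, against 19.3 ± 1.94 and 26.3 ± 1.49 in controls (SD, n = 4 each), again without overlap. The order of this pair was turned round in early cKO hearts. Below them in late cKO hearts came Trib3 (80.9 CPM per kb), Ppp1r15a (74.9), Ddit3 (57.2), Ddit4 (40.5), Nupr1 (22.6), Sesn2 (18.9), Cebpb (8.84) and Cebpg (4.73); neighbours overlapped except at Ddit4 over Nupr1 and Cebpb over Cebpg. In late controls the order below Atf5 was Ddit3 (13.6), Ddit4 (11.2), Ppp1r15a (9.03), Cebpb (8.37), Cebpg (5.21), Nupr1 (3.16), Trib3 (2.11) and Sesn2 (1.22), with overlap between Ddit3 and Ddit4 alone, so Trib3 stood in position 3 in cKO hearts and in position 9 in controls. In early cKO hearts the order below Atf4 was Ddit4 (23.4), Cebpb (10.1), Ppp1r15a (9.21), Ddit3 (7.75), Cebpg (7.16), Trib3 (6.30), Sesn2 (2.25) and Nupr1 (2.03), and all neighbours from Cebpb down overlapped. In early controls Ddit4 (20.6) stood between Atf4 and Atf5, followed by Cebpb (10.2), Ddit3 (9.39), Ppp1r15a (7.27), Cebpg (5.56), Nupr1 (1.81), Trib3 (1.76) and Sesn2 (1.16); Ddit4 overlapped Atf5, Cebpb overlapped Ddit3, Ddit3 overlapped Ppp1r15a and Nupr1 overlapped Trib3.

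Genes with the pattern most like 4 of the members were found by the root mean square difference in log2 change over the 7 cKO hearts among 12098 genes tested at both times. Nearest to Atf4 were Cars, Eprs and Nars (0.13, 0.18 and 0.18), all aminoacyl-tRNA synthetase genes, and Ppp1r15a, the closest of the other members, was at rank 9 (0.28). Nearest to Atf5 were Aldh18a1, a proline synthesis gene (0.39), the transcription factor gene Myc (0.43) and Angptl6 (0.78). Nearest to Trib3 were Pycr1, a proline synthesis gene (0.42), the transcription factor gene Tfcp2l1 (0.42) and the amino acid transporter gene Slc7a5 (0.44). Nearest to Ddit4 were Morn1 (0.19), Sqstm1, which encodes an autophagy receptor (0.23), and Nudt16 (0.23). Of these 12 genes, all rose late, from 1.75 for Morn1 to 5.69 for Slc7a5 on the log2 scale, and the 9 near Atf4, Atf5 and Trib3 also rose early, from 0.51 for Nars to 2.05 for Pycr1, but the selection used these values, and the hearts share libraries and controls.

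Among the other genes of the pathway, most tested ATF4 targets passed the test at both times. The shares of all tested genes called higher were 31.8% late and 0.517% early. Late, 26 of 29 tested ATF4 targets rose and 1, Vldlr, which encodes a lipoprotein receptor, fell (log2 fold change -1.44), with a list median of 2.96. The smallest p late were those of the folate enzyme gene Mthfd2 (log2 fold change 7.12, SE 0.16, edgeR adjusted p = 3.97e-08), Slc7a5 (5.69), the serine synthesis gene Phgdh (7.14) and the asparagine synthetase gene Asns (7.62). Early, 16 of 26 tested rose and none fell, with a median of 0.69, and Slc7a11, Slc7a3 and Fgf21 had too few counts to be tested. The smallest p early were those of Mthfd2 (log2 fold change 4.35, SE 0.26, edgeR adjusted p = 9.04e-06), Asns (3.09), Aldh18a1 (1.39) and Mars (0.73). Early changes of all 4 of these were larger than that of Atf4 RNA itself, 0.64, for Mars by a small margin. Of 8 targets of CHOP, 4 rose late (Wars 2.39, Ero1l 2.34, Tnfrsf10b 0.92 and Dnajc3 0.40 on the log2 scale) and the pro-apoptotic gene Bcl2l11 fell (-0.82); early, none of 8 was called, at a median of 0.05.

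The translation factor genes upstream of ATF4 were mostly called late, and the kinase genes in part. Of the 4 eIF2α kinases, 2 rose late, Eif2ak1 (HRI, which acts in the mitochondrial stress relay; log2 fold change 0.59) and Eif2ak3 (PERK, of the endoplasmic reticulum; 0.41), and none was called early. Of 8 genes for eIF2 and its exchange factor eIF2B, 7 rose late, with the smallest p for Eif2s2 (2.13), Eif2b3 (2.41), Eif2s1 (1.16) and Eif2b2 (1.22), and 1, Eif2s2 (0.43), rose early; Eif2a, which encodes the separate initiation factor eIF2A and stood in the same list, rose late (0.45) and was not called early. Of 4 other genes of the eIF2α phosphatase, 3 rose late, Ppp1ca (0.69), Ppp1cb (0.51) and Ppp1r15b (0.39), and none was called early. Of 3 genes listed for the mitochondrial relay to HRI, the protease gene Oma1 (-1.55) and 0610009O20Rik (-1.58), which RefSeq gives as Dele1, fell late. The third, Yme1l1 (0.53), encodes another protease rather than a step of the relay, and it rose late. None of the 3 was called early. Each of these lists had a larger late than early count, as did the share of all genes called (65% and 0.613%).

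Relatives of the 10 genes moved in both directions late, as did all tested genes, of which 31.8% were called higher and 33.2% lower. Some genes stand in more than 1 list, such as Cebpa, Cebpd, Sesn1, Xbp1 and Eif4ebp1. Of 9 tested paralogues, 5 fell late, Ddit4l (-2.42 on the log2 scale), Trib2 (-1.59), Trib1 (-1.43), Cebpa (-1.38) and Sesn1 (-0.91), while 2 rose, Cebpd (0.77) and Ppp1r15b (0.39), with a median of -0.91; of 8 tested early, none was called. Of 32 other bZIP factor genes tested late, 13 rose and 14 fell, with a median of -0.06; the smallest p were those of Mafk (2.57), Maff (2.34), Atf3 (1.70) and Jun (-1.57), of which the first 3 rose and Jun fell. Early, 1 of 30, Fosl2 (1.30), rose. Of 14 other genes listed for restraint of mTORC1 signalling, 5 rose and 4 fell late, and none was called early. The smallest p late were those of Eif4ebp1 (2.53), Akt1s1 (1.35), Eif4ebp2 (-0.94) and Pik3ip1 (-0.97). Of these, Eif4ebp1 and Eif4ebp2 encode targets of mTORC1 that act downstream of it.

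Genes of other stress pathways that can induce some of the members were counted in the same way. Over all tested genes, 31.8% were called higher and 33.2% lower late, and 0.613% were called early. Counts near these shares are not particular to a list. Of 18 genes of the endoplasmic reticulum unfolded protein response, 9 rose and 3 fell late, with a median of 0.26, among them Pdia4 (-1.28), Xbp1 (0.86), Ern1 (1.41) and Dnajb9 (1.01), and Pdia6 and Hyou1 also fell; early, none was called, at a median of -0.08. Of 12 p53 targets, 10 rose late, led by p by Cdkn1a, the cell cycle inhibitor p21 (4.65), and Ccng1 fell. Of 10 glucocorticoid targets, 4 rose late, Fkbp5 (2.30), Pdk4 (2.05), Per1 (1.14) and Sgk1 (0.61), and Cdkn1c (-0.94) fell. Of 11 hypoxia targets, 5 rose and 5 fell late, with the smallest p for Slc2a1 (1.54), Hk2 (-0.94), Egln1 (-1.0) and Vegfa (-0.57). Early, no p53, glucocorticoid or hypoxia target was called.

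**Figure D4:**
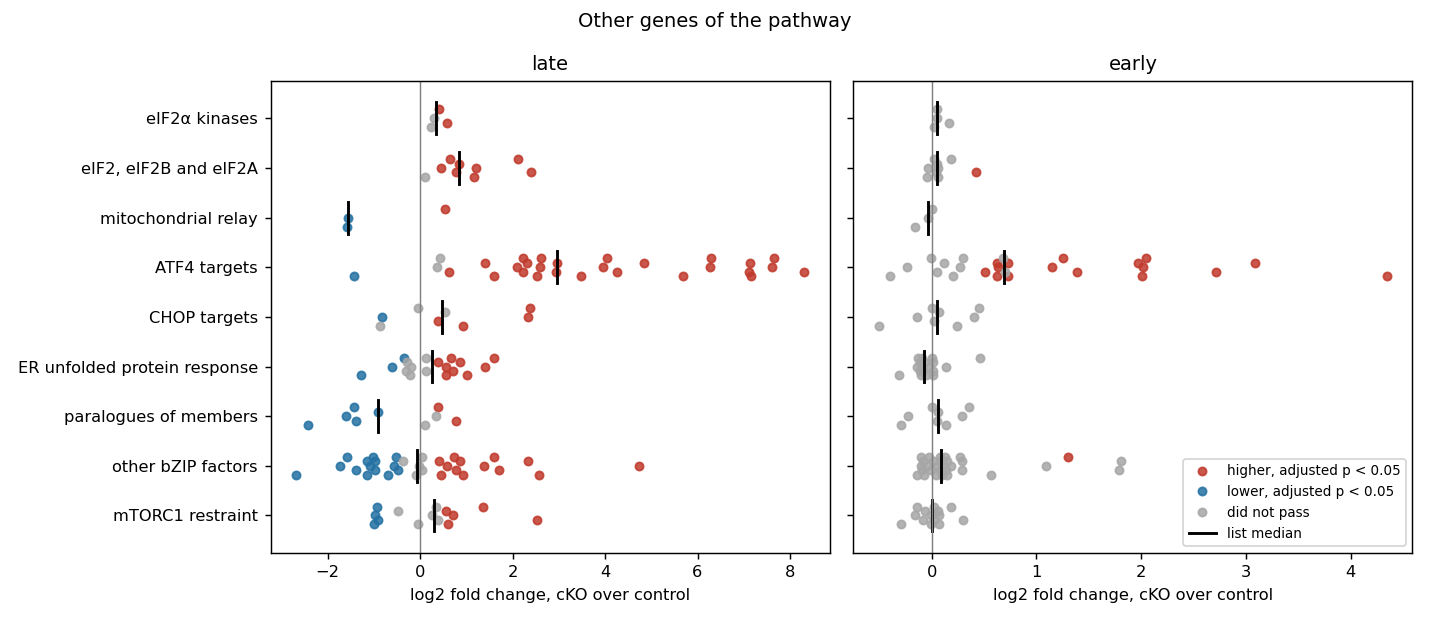
Log2 fold change of cKO over control for the genes of 9 lists, late (left) and early (right, on its own scale); points are genes, red or blue where edgeR's adjusted p was under 0.05, grey otherwise, and black bars are list medians. ATF4 targets have a median of 2.96 late and 0.69 early, whereas the other bZIP factors are split late into 13 higher and 14 lower and have 1 call early.

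Markers of other cell types moved with the late groups, where 33.2% of all tested genes were called lower and 31.8% higher in cKO hearts. Of 10 endothelial markers, 9 fell and none rose late, and they summed to 850 to 925 CPM in cKO hearts and 1808 to 1986 CPM in controls. Of 10 macrophage markers, 8 fell and none rose (229 to 295 CPM in cKO hearts, 443 to 447 CPM in controls). Of 10 fibroblast markers, 5 fell and 2 rose (1092 to 1575 CPM in cKO hearts, 1413 to 1868 CPM in controls). The 2 that rose were Postn (log2 fold change 2.09) and Mfap5 (1.03). Of 8 smooth muscle and pericyte markers, 7 fell and 1 rose (1642 to 2342 CPM in cKO hearts, 1492 to 1579 CPM in controls), the gene that rose being Acta2, at 1411 CPM in cKO hearts against 203 CPM in controls. Of 6 tested red blood cell markers, all 6 rose (198 to 381 CPM in cKO hearts, 42.7 to 74.3 CPM in controls), and of 7 atrial markers 1 rose and 2 fell (1765 to 2984 CPM in cKO hearts, 163 to 1032 CPM in controls, where Nppa made up most of the cKO sum, at 2244 CPM in cKO hearts against 266 CPM in controls). Of 4 tested adipocyte markers 1 fell (0.0853 to 4.91 CPM in cKO hearts, 1.01 to 18.7 CPM in controls), and no lymphocyte marker had enough counts to be tested at either time. Early, no marker of any list was called. Early adipocyte markers summed to 1.77 to 15.5 CPM in cKO hearts and 0.356 to 2.03 CPM in controls, with Lep and Ucp1 at 0 in several hearts of both groups, and atrial markers to 77.4 to 1601 CPM in cKO hearts, highest in replicate 2, and 85.2 to 364 CPM in controls. The atrial gene Sln had 0 counts in late cKO replicate 3, early cKO replicate 1 and early control replicates 2 and 4. Myl7, another atrial gene, had 0 counts in early control replicate 4. How much atrial tissue each sample held was not tested. The part of these cell type markers in the changes of the 10 genes was not tested.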

How the data were processed

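RNA-seq libraries of 14 mouse hearts were analysed. Per the labels' protocols, poly-A RNA from 100 ng of input went into TruSeq libraries, a kit that does not mark strand, which were read single-end to 100 nt. Per the submitters' processing notes, tools included Trimmomatic 0.36 and STAR 2.6.0c with build GRCm38; which program counted the reads, and with which annotation and strand option, is not given in the sources used here. Deposited values are whole-number counts per gene symbol, 1 table per time point, as far as the values show not normalized by the authors.

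Counts were tested here with edgeR 4.0.16 (R 4.3.3): quasi-likelihood F test, TMM, a filterByExpr filter at a minimum count of 10 and a minimum total of 15, and adjustment by Benjamini-Hochberg over all tested genes. Each time point was fitted alone, and the late change minus the early change was a contrast of group means fitted to all 14 hearts together. SE was obtained as log2 fold change over the root of the F statistic. CPM used TMM-scaled library sizes, and changes per heart used log2 CPM with a prior count of 2. Levels per kb divide CPM by the exon length in GENCODE M21, which held all 10 members and 53.1% of all symbols. Alternatives were other scalings, DESeq2 1.42.0, no filter, a replicate block, 1 fit of all hearts, and leaving out each heart. No 2 libraries of a group agreed within sampling noise (chi-square per gene 3.90 or more).

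The members and the 22 gene lists were chosen with earlier results of these data known. Named genes were the 10 members, Fam210a, up to 4 genes of each described list with the smallest p, genes that passed against most of their list, and the 3 genes nearest in pattern to Atf4, Atf5, Trib3 and Ddit4, with Y-linked genes, pseudogenes and predicted genes left out. Genes that fell or rose were named in full in some short lists, while in the cell type marker lists most were not named. The procedure was tested on simulated data, in which 100 genes were changed 1.5-fold, 100 were changed 3-fold and the rest were unchanged. In the real late data 65% of tested genes were called. Of 1.5-fold changes, 86% were recovered early, 17% late and 23% for the difference between times. Of 3-fold changes, 100%, 99% and 99% were recovered. False calls made up 6.53%, 2.52% and 6.15% of the calls. The adjustment of p depends on the share of genes that change, so the simulated late recovery does not carry over directly to the late data. Small late changes could be missed, but how many were missed was not tested. Early cKO replicate 4, a knockout by title, was grouped as cKO.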

Additional observations from a re-analysis of the deposited data

Results flagged for a closer look

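The change between cKO and control hearts differed between the late and the early time point, by the genotype-by-time contrast of edgeR, for 9 of the 10 genes. The late minus early log2 difference was 3.44 for Trib3, 3.03 for Sesn2, 2.73 for Ppp1r15a, 2.68 for Nupr1, 2.37 for Ddit3, 2.29 for Atf4, 1.69 for Ddit4, 1.44 for Atf5 and -0.49 for Cebpg. Over all tested genes 61.2% differed, and the time points are separate count tables, so the effects of time and of table cannot be told apart.

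Atf4 had 1 early control heart apart from the other 3: replicate 1 stood at 67.2 CPM, against 59.7 to 60.4 CPM in the others, a gap of 0.902 of the group's range. Of the 20 groups of 4 hearts checked, this was 1, and chance alone flags about 1 in 20.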

How the results depend on the processing

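The 8 late rises, the 8 larger late than early changes and the lower late change of Cebpg held under all alternatives run, with 8374 to 10859 genes called late and 8012 to 9403 differing between times. Early calls depended more on the settings. Against 83 genes called early, DESeq2 called 176, no filter on low counts 388, and counting early cKO replicate 4 as a control 162. Leaving out 1 heart gave 45 to 181 genes (181 without cKO replicate 4, 46 without cKO replicate 2, and 54, 46 and 45 without control replicates 2, 3 and 4) and 2 to 5 of the 10 members (2 without control replicate 3). Atf4 and Atf5 were called early under every alternative, and Sesn2 was also lost in the fit of all 14 hearts (edgeR adjusted p = 0.187). Leave-one-out fits also have a smaller group, and the cause of the differences between settings was not tested. Changes that did not pass the test crossed 0 in some fits: Ddit4 early was -0.12 when cKO replicate 4 counted among the controls, Cebpb late was -0.0038 with library totals only, and leaving out 1 heart gave ranges of -0.099 to 0.062 for Cebpb early, -0.0087 to 0.32 for Nupr1 early, -0.0043 to 0.29 for Ddit4 early, -0.22 to 0.25 for Cebpb late and -0.21 to 0.31 for the late minus early difference of Cebpb. Scaling by library totals moved the median log2 change of all genes to -0.0935 late and -0.103 between times. The replicate numbers did not pair the hearts: same-numbered hearts had correlated deviations of -0.412 to -0.058 late and -0.089 to -0.0365 early, and no cKO heart correlated best with its own number. With the replicate block, 8374 genes and 8 members were called late, 78 genes and 3 members early (Sesn2 was lost, edgeR adjusted p = 0.0586), and 8012 genes and 8 members between times. Depth limits the early values of Trib3, Nupr1 and Sesn2 most, with 45 to 79 counts per control library.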
